A study of Mus musculus with 1646 samples.

Results

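Class 3 semaphorins are secreted guidance proteins, and 6 of them (Sema3a, Sema3b, Sema3c, Sema3d, Sema3e and Sema3f) were followed in the colonic mesenchyme together with 2 neuropilins (Nrp1, Nrp2) and 2 plexins (Plxna2, Plxnd1). The 10 genes were taken by symbol, through the Ensembl identifiers of GENCODE vM21, from the 46517 genes of the colon count table, and all 10 had counts. Most class 3 semaphorins bind a neuropilin on the receiving cell, and a plexin in the same complex passes the signal on. Sema3e is the known exception, since it can bind plexin D1 without a neuropilin. Neuropilins are also coreceptors for vascular endothelial growth factors, and the family is best known for steering axons and growing vessels.

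The data were single-cell SmartSeq2 read counts of 1646 colon cells from male mice aged 10 to 20 weeks, sorted as negative for the endothelial antigen CD31. The cells came from 4 reporter lines, namely PdgfrbGFP (on 4 plates), Acta2GFP (on 2), PdgfraGFP (on 2) and Cspg4dsRED (on 1), in which the promoter of the named gene drives the fluorescent protein. The Acta2GFP tissue was dissociated with elastase added. The labels place each cell in 1 of 8 clusters, which the study named as fibroblasts of the crypt base (cluster 7), base to middle (5), middle (1), middle to apex (6) and apex (2), and as pericytes (4), vascular smooth muscle cells (3) and interstitial smooth muscle cells (8). The labels name no mouse, so 1 reporter line with at least 10 cells in a cluster was counted as 1 sample, and p-values measure the spread between lines, which differ in reporter and in dissociation. The clusters were drawn from these same counts, so a difference between clusters is not independent of how they were made.

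Gene counts per cell ran from 47598 to 1494292, with a median of 248628. A level below is the mean over a line's cells of counts per 500000 gene counts, and a level per kb divides it by the gene's exon length. By class, 5 fibroblast genes summed to 7404 counts per 500000 in the fibroblast clusters (mean of 4 lines) and 1212 in the mural clusters (3 lines), and 4 mural genes to 62.1 and 3159. By cluster the markers were less separate, since cluster 8, classed as mural, had a fibroblast sum of 1811 and a mural sum of 484.4 beside a smooth muscle sum of 9372, and cluster 6, classed as fibroblast, had a smooth muscle sum of 1182 (4 genes, 179.8 over all fibroblasts). The endothelial list was mixed. Its defining genes Cdh5 and Kdr had mean levels of at most 0.687 and 1.82 in any cluster and Pecam1 of at most 12.9, but the 12 genes summed to a mean of 40.6 (cluster 6) to 672.1 (cluster 4), with Esam the highest in clusters 3, 4 and 8 (143.3 to 495.7), Tek in clusters 5, 6 and 7 (13.7 to 179.5) and Plvap in clusters 1 and 2 (33.1 and 16.7).

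Sema3d, Sema3a, Sema3e and Sema3c lie in that order on chromosome 5 (GRCm38), between 12383385 and 17730268, and Sema3b and Sema3f are 72271 bases apart on chromosome 9. Nrp2 and Plxna2 are on chromosome 1, Plxnd1 on chromosome 6 and Nrp1 on chromosome 8. All are protein-coding, and Nrp1 was the only member whose exons overlap those of another annotated gene, the microRNA gene Mir1903. The 250 bases before the RefSeq start (GRCm38.p6) are shown, 5′ to 3′ on the gene's strand, for a ligand with a higher level at the base than at the apex in each line (Sema3d), its neighbour that was high at the apex (Sema3a) and the receptor that was higher in mural cells (Plxnd1). Windows that overlap an annotated exon are not shown. The RefSeq start lies inside the GENCODE gene for Sema3a (by 271370 bases) and, by 32 to 1611 bases, for Nrp2, Nrp1, Sema3c and Plxna2. For Sema3d it lies outside, since the window ends at 12383165 and the GENCODE gene starts at 12383385. Which start these cells use is not known, so the windows of these genes may not be the promoters in use. Capitals mark a match to a searched motif.
Sema3d, chr5:12382916-12383165, plus strand: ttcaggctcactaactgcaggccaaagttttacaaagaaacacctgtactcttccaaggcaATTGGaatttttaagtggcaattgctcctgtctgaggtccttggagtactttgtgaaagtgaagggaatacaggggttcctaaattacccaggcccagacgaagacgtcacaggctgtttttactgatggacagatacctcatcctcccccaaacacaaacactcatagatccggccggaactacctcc
Sema3a, chr5:13396534-13396783, plus strand: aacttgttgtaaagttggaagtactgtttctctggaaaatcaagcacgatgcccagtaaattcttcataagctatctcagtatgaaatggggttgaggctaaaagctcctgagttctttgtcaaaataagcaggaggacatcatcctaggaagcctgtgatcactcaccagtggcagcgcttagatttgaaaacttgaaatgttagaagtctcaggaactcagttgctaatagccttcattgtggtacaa
Plxnd1, chr6:115995006-115995255, minus strand: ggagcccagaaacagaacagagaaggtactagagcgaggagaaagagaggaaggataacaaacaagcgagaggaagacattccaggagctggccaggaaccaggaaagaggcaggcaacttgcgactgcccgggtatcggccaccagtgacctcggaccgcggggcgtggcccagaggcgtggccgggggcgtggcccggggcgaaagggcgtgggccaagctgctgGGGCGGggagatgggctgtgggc
Both strands were searched. The GC box letters GGGCGG were held by 32.7% of the 32851 RefSeq windows, and occurred in Plxnd1, Nrp1, Nrp2, Plxna2, Sema3c and Sema3e. The CCAAT box letters were held by 33.8% of windows and occurred in Sema3d. The TCF/LEF core letters CTTTGA were held by 13.8% and occurred in Nrp2 and Sema3e. The TATA box letters TATAAA (held by 12.4%), the AP-1 site letters TGACTCA (held by 4.46%) and the E-box letters CAGCTG (held by 13.001%) did not occur in the 8 members with a window. No motif overlapped another in the 3 windows shown, and Sema3a held none. GC content ran from 40.8% in Sema3a to 78.4% in Sema3c, against a median of 52.4% over all windows.

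Along the crypt axis, the mean levels of Sema3c, Sema3b and Sema3d fell from base to apex, and that of Sema3f rose. Sema3c was the most abundant, with 615.8 counts per 500000 in Acta2GFP, 539.8 in PdgfraGFP and 429.1 in PdgfrbGFP cells of the base. At the apex the same lines had 3.39, 0.469 and 8.35, and single apex cells with more Sema3c shared a plate row or column with wells of more Sema3c (mean Spearman rho 0.40 over 5 plates), whose part in the result was not tested. Every base line was above every apex line, and the lines of clusters 5 and 1 lay between (base to middle 191.7 ± 68.2, SD, n = 4, middle 89.8 ± 26.6, n = 3). In the middle-to-apex cluster Acta2GFP had 66.1, above the lowest middle line (61.8), and PdgfraGFP 2.96. Sema3b followed the same course at lower level, from 53.5 ± 16.2 at the base (n = 3) through 28.1 ± 5.36 (n = 4) and 14.01 ± 2.41 (n = 3) to 0.584 ± 0.852 at the apex (n = 3). In cluster 5, 1 of 13 Cspg4dsRED cells gave 81.1% of the level of 33.9, which was 6.96 without it, under every middle line (11.7 to 16.5), and PdgfraGFP went from 21.2 to 11.95 without its highest cell. The middle-to-apex levels of Sema3b were 0.151 in Acta2GFP and 7.34 in PdgfraGFP, where 1 of 26 cells gave 99.5%. In PdgfraGFP base cells 1 of 15 cells gave 49.2% of it. Sema3d had 46.7, 22.3 and 28.98 in the base cells of Acta2GFP, PdgfraGFP and PdgfrbGFP, and no count at all in the apex cells of Acta2GFP and PdgfraGFP, while PdgfrbGFP apex cells had 1.27 (a count in 46.7% of 30 cells). Its base range overlapped that of cluster 5, where Acta2GFP had 46.5 and Cspg4dsRED had no count in 13 cells. In PdgfraGFP base cells, 79.8% of the Sema3d level came from 1 of 15 cells, and without it the level was 4.83, under the 8.60 of that line in cluster 5. The middle-to-apex cluster had 0.692 and 0.280.

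Sema3f ran the other way, and Sema3a was high only at the apex among the fibroblast clusters. Sema3f, a ligand with a known preference for neuropilin 2, had 199.2 counts per 500000 in Acta2GFP, 115.4 in PdgfraGFP and 172.02 in PdgfrbGFP apex cells, and 0.579, 0.138 and 1.67 in the base cells of those lines. The middle (22.2 ± 7.04, n = 3) and middle-to-apex clusters (58.3 and 55.8) lay between. In the middle-to-apex cluster 1 of 10 Acta2GFP cells gave 50.99% of the Sema3f level and 1 of 26 PdgfraGFP cells 46.6%, and without these cells the levels were 31.7 and 31.002, near the highest middle line (30.3). Sema3a, the prototype repellent that acts through neuropilin 1, had 43.01, 43.9 and 50.6 in the 3 apex lines, and no line of another fibroblast cluster was above 6.38. It was uneven among apex cells, since the median cell of these lines had 2.89, 0 and 1.41 and the highest cell gave 19.5, 24.3 and 26.5% of the level. Its level was 1.84 ± 2.05 (SD, n = 3) at the base, 1.82 ± 0.861 in cluster 5 (n = 4) and 4.32 ± 2.61 in the middle (n = 3). In the middle-to-apex cluster it was 0.461 and 0.899, so Sema3a had no graded course. Sema3e was scarce, with 654 counts in 61 cells of the whole series, and its highest mean (4.59 at the apex) rested on PdgfrbGFP, where 1 cell gave 70.2% of the level.

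**Figure D1:**
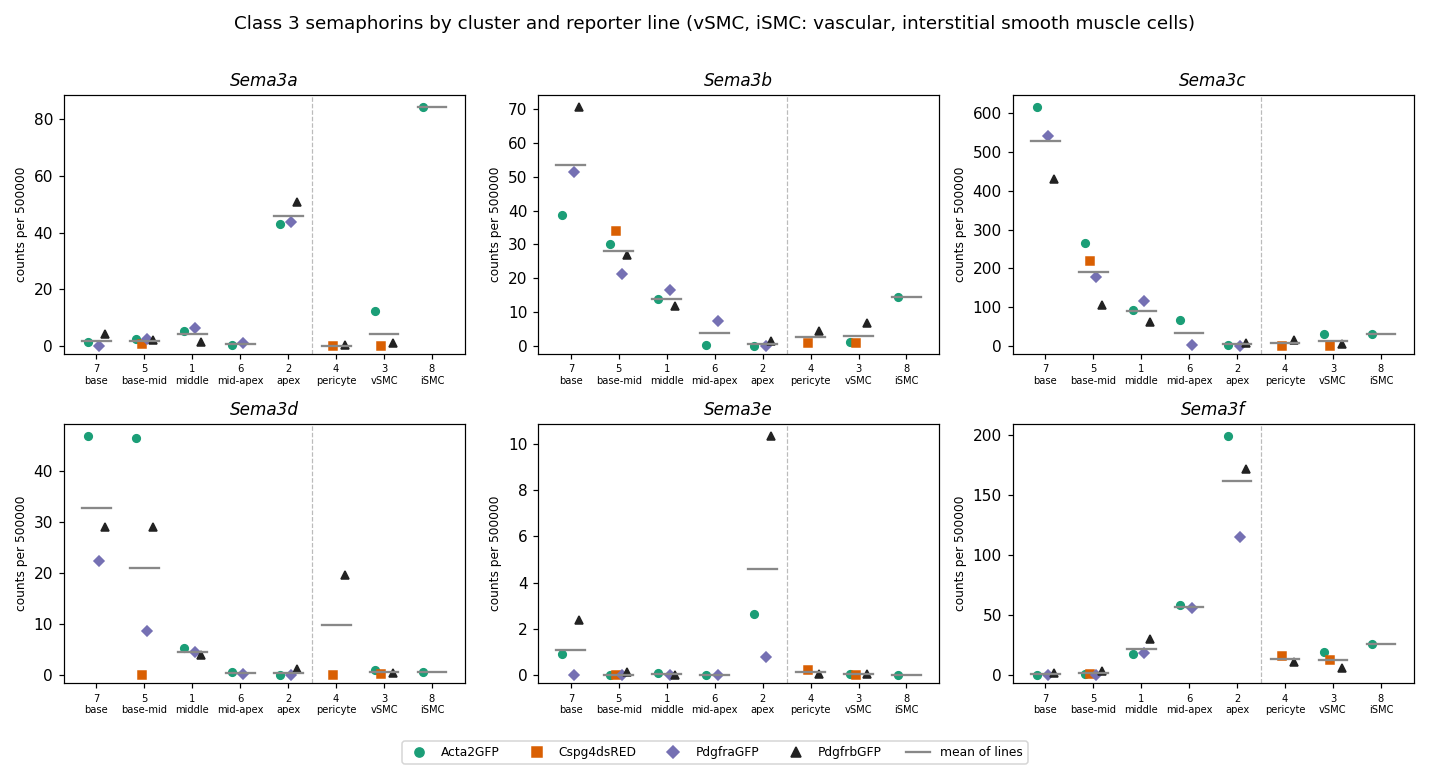
Levels of the 6 ligands (y axis, counts per 500000, a separate scale for each gene) in each cluster (x axis, crypt base to apex, then mural clusters). Each point is 1 reporter line with at least 10 cells and the grey bar is the mean of lines. Sema3c and Sema3b have their highest points at the base, Sema3d at the base and in the base-to-middle cluster, Sema3f at the apex, and Sema3a in interstitial smooth muscle cells and at the apex.

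The test of apex against clusters 1, 5 and 7 (edgeR quasi-likelihood on summed counts, 3 against 4 line sums, Benjamini-Hochberg adjustment over all genes) called 3 of the 10 members higher and 2 lower. All 10 passed the filter on low counts in each comparison. Markers of other cell types moved with the apex in both directions, and their part in the result was not tested. The 4 mural genes summed to 0.475 to 22.1 in the apex lines and 67.2 to 82.6 in clusters 1, 5 and 7. The endothelial list summed to 18.3 to 97.3 and 108.8 to 165.5. The 2 genes listed for interstitial cells of Cajal summed to 98.1 to 219.6 in the apex lines and 0.192 to 23.1 in clusters 1, 5 and 7, nearly all of it Ano1, with Kit at means of 0.503 and 0.406. The 2 listed for interstitial smooth muscle cells summed to 253.8 to 355.7 and 35.2 to 77.1, but they went opposite ways. At the apex Rgs10 had a mean of 312.9 out of a mean sum of 316.3. In clusters 1, 5 and 7 Hhip was the higher of the 2, at 35.8 out of 65.6, so Hhip was lower at the apex. Of all 15893 genes tested, 3.5% were called higher and 3.76% lower. Sema3a was higher by a log2 fold change of 4.83 ± 0.62 (SE, adjusted p = 0.00209) and Sema3f by 4.43 ± 0.79 (adjusted p = 0.0102). Nrp2 was higher by 1.87 ± 0.27 (adjusted p = 0.00406). Sema3c was lower, at -5.83 ± 0.99 (adjusted p = 0.00838), as was Sema3b, at -5.05 ± 0.99 (adjusted p = 0.0158). Sema3d (-5.95 ± 1.64) missed the threshold with an adjusted p of 0.0625, and Nrp1 (-2.03 ± 0.71) with 0.13. Of 13 alternative settings, Sema3d passed in 6 (DESeq2, limma, no filter, plates, without plate 075s and without PdgfrbGFP) and Nrp1 in 3 (DESeq2, limma and plates). All 5 calls were lost without the Acta2GFP line, and Sema3b also lost its call without PdgfraGFP. Over the alternative settings named with the methods, their adjusted p (edgeR, DESeq2 or limma) reached at most 0.15. Clusters 1 and 7 alone were also compared with the apex, a choice made after the levels were seen. Against cluster 1 all 5 calls were lost (edgeR adjusted p from 0.11103 to 0.562) and Nrp1 was the single member called (-2.89), with 1.3% of genes called. Against cluster 7, Sema3f, Nrp2, Sema3b and Sema3c were called and Sema3a was not (4.41, edgeR adjusted p = 0.1298), with 3.66% of genes called.

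The test of base against middle fibroblasts, from 1 fit of all 21 cluster sums, called no member higher and 2 lower, against 0.12% and 0.368% of 21739 genes. Sema3f was lower at the base by a log2 fold change of -5.10 ± 0.91 (edgeR adjusted p = 0.0105) and Nrp2 by -3.15 ± 0.51 (adjusted p = 0.00488). Marker lists moved with this contrast, and their part in the result was not tested. The 3 pericyte genes summed to 5.61 to 16.8 in the base lines and 56.4 to 67.5 in the middle lines, and the endothelial list to 158.4 to 287.2 (mostly Tek) and 53.3 to 97.04. The 4 apex fibroblast genes summed to 30.2 to 69.2 in the base lines and 722.3 to 731.2 in the middle lines. Cd34, listed for deep fibroblasts, went the other way, with 1051 to 1544 and 533.3 to 712. Sema3c (2.80 ± 1.37), Sema3b (1.72 ± 1.19) and Sema3d (3.24 ± 1.84) had positive values that did not pass. Without Acta2GFP neither call held, without PdgfraGFP Sema3f lost its call, and without PdgfrbGFP Nrp2 did. With at least 3 cells per sum (0.814% of genes called) Nrp2 lost its call and Plxnd1 gained one. DESeq2 called 4 members (2.86% of genes), with Sema3e and Plxnd1 added. With line as a replicate block, 0.773% of genes were called in place of 0.488%, and the count of members stayed at 2.

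Between middle-to-apex and apex fibroblasts (2 against 3 line sums) edgeR called 0 of 10 members, where 0.262% of genes were called higher and 0.695% lower. At an unadjusted p under 0.05 the count was 4 (14.5% of all genes), and DESeq2 called 3 (8.94% of genes) and limma 2 (4.08%). Sema3a had a log2 fold change of -6.86 ± 2.10 (edgeR adjusted p = 0.126). The smooth muscle list summed to 590.2 and 1775 in the middle-to-apex lines and 102.1 to 319.4 in the apex lines.

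**Figure D2:**
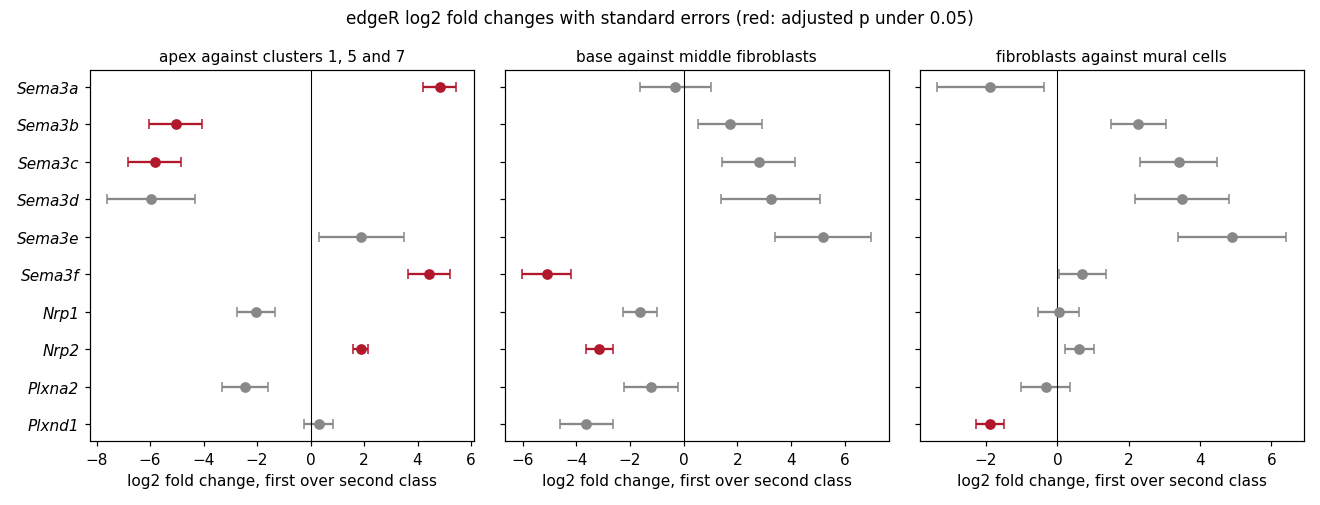
edgeR log2 fold changes (x axis) of the 10 members (y axis) in 3 comparisons, with standard errors as bars and calls at an adjusted p under 0.05 in red. Sema3a, Sema3f and Nrp2 lie to the right and Sema3b and Sema3c to the left in the apex comparison, and Plxnd1 is the only red point between fibroblasts and mural cells.

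Per kb, the 6 ligands together gave 89.4 ± 10.5 (SD, n = 3 lines) at the base, 20.6 ± 3.33 in the middle (n = 3) and 35.8 ± 8.94 at the apex (n = 3). The makeup also differed. Sema3c was 82.4 ± 5.60% of the base sum, and Sema3b 12.9 ± 5.36%. At the apex Sema3f was 87.2 ± 3.52% and Sema3a 9.66 ± 2.55%, with Sema3c at 1.45 ± 1.38%. The middle cluster held Sema3c (60.1%), Sema3f (21.6%) and Sema3b (14.2%) side by side.

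**Figure D3:**
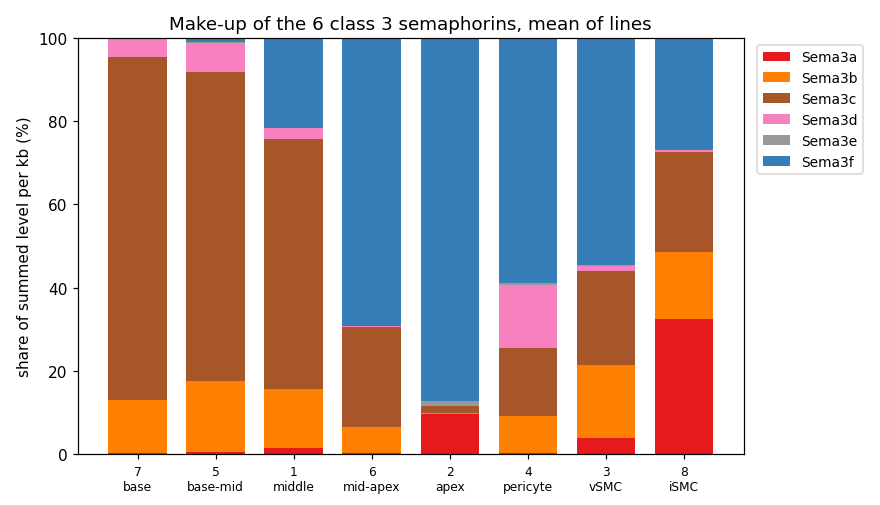
Share of each ligand in the summed level per kb (y axis, %, mean of lines) in each cluster (x axis). Sema3c makes up 82.4% at the base and Sema3f 87.2% at the apex.

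At the level of cells, every base cell had a Sema3c count. After each cell was thinned to 50000 counts, which left out 11 of the 1646 cells as too shallow, Sema3c was seen in 98.7 to 100% of the base cells of the 3 lines. At the apex it was seen in 20.5% (Acta2GFP), 7.27% (PdgfraGFP) and 60% (PdgfrbGFP) of cells. Among mural cells 8.20% (Cspg4dsRED), 15.9% (PdgfrbGFP) and 45.1% (Acta2GFP) had a count, so the apex and mural ranges overlapped. In mural cells the fibroblast markers also had counts (684.7 to 1486 per 500000 in the 3 lines), whose part in the result was not tested.

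Neuropilins, the ligand-binding receptors, differed from each other along the axis. Nrp1 peaked in the middle with 232.6 (Acta2GFP), 249.9 (PdgfraGFP) and 276.5 (PdgfrbGFP) counts per 500000, against 50.03, 112.1 and 82.04 at the base and 30.4, 3.32 and 33.7 at the apex. The middle lines overlapped with no line of the other 4 fibroblast clusters. The difference between base and middle did not pass for Nrp1 (log2 fold change -1.64 ± 0.63, edgeR adjusted p = 0.41). Nrp2 went from 13.97 ± 3.83 at the base (n = 3) and 38.7 ± 9.59 in cluster 5 (n = 4) to 165.95 ± 33.2 in the middle (n = 3) and 213.6 ± 40.1 at the apex (n = 3). Its middle range overlapped the middle-to-apex and the apex range.

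At 50000 counts per cell and over all lines, 66.3% of middle cells had a count of both, 21.6% of Nrp1 alone and 8.52% of Nrp2 alone. At the base these were 28.2%, 42.7% and 5.45%, and at the apex 30.5%, 6.11% and 44.3%. In the middle-to-apex cluster they were 22.2%, 13.3% and 53.3%, so Nrp2 alone was not particular to the apex. Within lines, the share with both was 68.8% (Acta2GFP), 41.5% (PdgfraGFP) and 71.9% (PdgfrbGFP) in the middle, and 31.8%, 9.09% and 66.7% at the apex, so the apex lines differed widely. Nrp2 alone was found in 54.5%, 52.7% and 16.7% of the apex cells of those lines. These shares are descriptions with no test.

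**Figure D4:**
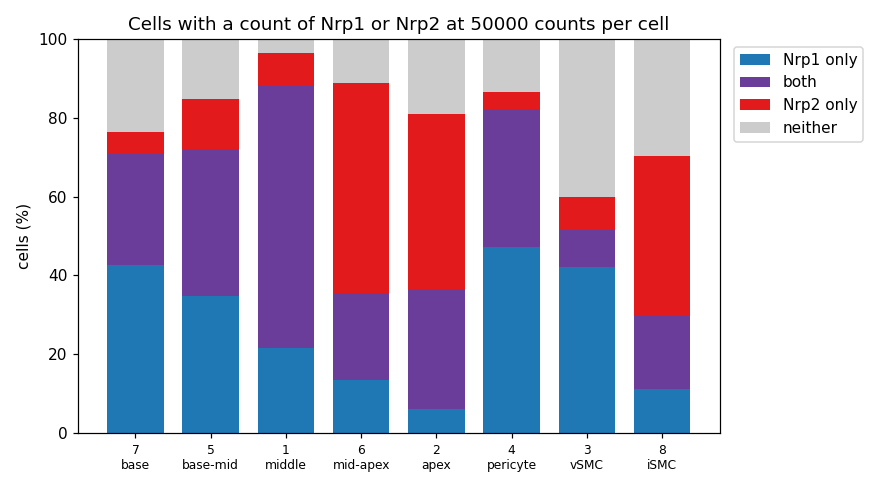
Share of cells (y axis, %) with a count of Nrp1 only, both neuropilins, Nrp2 only or neither, after thinning to 50000 counts, by cluster (x axis), all lines pooled. Nrp1 alone is frequent at the base (42.7%), in pericytes (47.1%) and in vascular smooth muscle cells (42.1%). Nrp2 alone is frequent in middle-to-apex cells (53.3%), at the apex (44.3%) and in interstitial smooth muscle cells (40.7%).

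Of the plexins, the signalling subunits, 1 of 2 was called between fibroblasts and mural cells. Plxnd1, the receptor that Sema3e binds directly, had 35.2 (Acta2GFP), 61.4 (PdgfrbGFP) and 96.97 (Cspg4dsRED) counts per 500000 in mural cells. In fibroblasts it had 10.1, 16.9 and 19.2 in those lines and 32.98 in PdgfraGFP, so the groups did not overlap. The endothelial list moved with it (summed level 263.1 to 567.9 in the mural lines and 79.9 to 160.7 in the fibroblast lines), with Esam at a mean of 364.04 in mural cells and Cdh5 and Kdr near 0. Plxnd1 was the only member called between fibroblasts and mural cells (4 against 3 line sums), lower in fibroblasts by a log2 fold change of -1.89 ± 0.39 (edgeR adjusted p = 0.0191), where 3.36% of 19173 genes were called lower. No member was called higher, against 3.21% of genes. The call was lost without any 1 of Acta2GFP, Cspg4dsRED and PdgfrbGFP and with limma on means per cell (adjusted p up to 0.125). With line as a replicate block, 590 genes were called in place of 1259, and the count of members stayed at 1.

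Within the mural clusters, Plxnd1 had 52.3 and 111.6 in pericytes and 76.01 ± 4.74 in vascular smooth muscle cells (n = 3), and 11.6 in the 1 line with at least 10 interstitial smooth muscle cells. Along the fibroblast axis it had 1.68, 0.201 and 2.58 in the base cells of Acta2GFP, PdgfraGFP and PdgfrbGFP and 19.6, 21.7 and 31.1 in the middle cells of those lines. These ranges did not overlap, but the difference did not pass (-3.62 ± 0.99, edgeR adjusted p = 0.149). At the apex it was 54.6 in PdgfraGFP and 11.3 and 6.96 in Acta2GFP and PdgfrbGFP. Plxna2, which belongs to the class A plexins that signal with neuropilins, was low in every cluster, at most 10.7 in any line, and was not called between fibroblasts and mural cells (-0.33 ± 0.70, edgeR adjusted p = 0.876). The ligands Sema3c (3.40 ± 1.08, edgeR adjusted p = 0.0995) and Sema3b (2.26 ± 0.77, adjusted p = 0.124) had positive fibroblast-over-mural log2 fold changes that did not pass, and DESeq2 (15.5% of genes called) and the fit of plates (16.1%) called both, and limma (7.94%) called Sema3c.

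**Figure D5:**
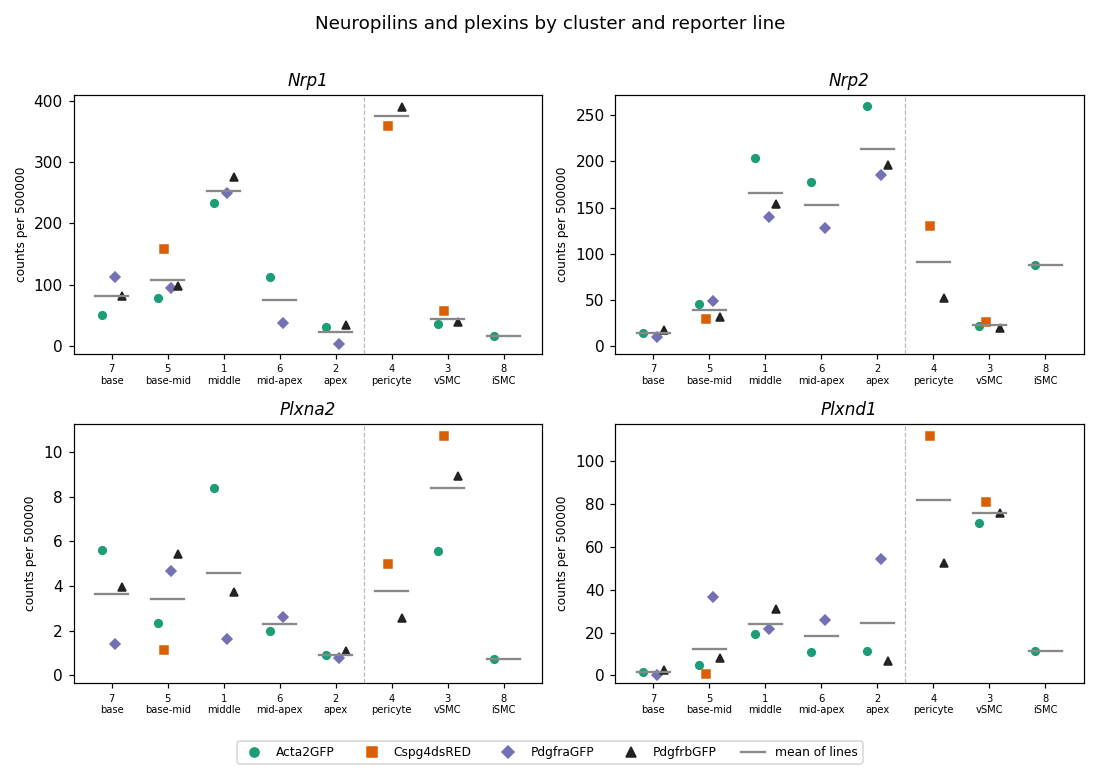
Levels of Nrp1, Nrp2, Plxna2 and Plxnd1 (y axis, counts per 500000, a separate scale for each gene) by cluster (x axis), with 1 point per reporter line and the mean of lines as a grey bar. Nrp1 is high in middle fibroblasts and pericytes, Nrp2 from the middle to the apex, and Plxnd1 in pericytes and vascular smooth muscle cells.

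Pericytes had the highest Nrp1 of all clusters, 359.1 in Cspg4dsRED and 390.3 in PdgfrbGFP cells, against 57.2 and 39.03 in the vascular smooth muscle cells of those lines. The difference from vascular smooth muscle cells was a log2 fold change of 2.84 ± 0.69 with an edgeR adjusted p of 0.0605, and for Nrp2 1.91 ± 0.52 with 0.106. The fibroblast list moved with this contrast, at 1058 and 2259 in the pericyte lines and 274.1 to 835.7 in the vascular smooth muscle lines, and its part in the result was not tested. So edgeR called 0 of 10 members between these clusters (2 against 3 line sums), where 0.621% of genes were called higher and 0.198% lower. At an unadjusted p under 0.05 the count was 3 (12.7% of all genes), and DESeq2 called 3 (5.57% of genes) and limma 2 (3.24%). Nrp1 passed with DESeq2, with limma, without the filter on low counts, with plates and without PdgfraGFP.

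Interstitial smooth muscle cells came from Acta2GFP (52 cells) and PdgfrbGFP (4, too few to count as a sample). In Acta2GFP they had the highest Sema3a of all clusters at 84.4 counts per 500000. In the vascular smooth muscle cells of that line the level was 12.2, of which 93.6% came from 1 of 29 cells. edgeR called 0 of 10 members between these clusters, with 0.879% of genes called higher and 0.129% lower. The count at an unadjusted p under 0.05 was 2 (9.51% of all genes), and DESeq2 called 1 (5.06% of genes) and limma 2 (4.05%). The single interstitial sum was assumed to vary like the other sums in that fit, so the result rests on 1 unreplicated sum. Its fibroblast sum was 1811, against 274.1 to 835.7 in the vascular smooth muscle lines, whose part in the result was not tested.

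Of 51 other genes of the pathway, 44 were tested at the apex, with 4 called higher and 1 lower (9.09% and 2.27%, against 3.5% and 3.76% of all genes) and a median log2 fold change of -0.22 (all genes 0.0047). Sema4d, a transmembrane semaphorin, was higher at the apex by 8.94 ± 0.60 (edgeR adjusted p = 0.000132), with a level of 56.8 ± 12.7 (n = 3 lines) there and a mean of at most 0.485 in any other cluster. Sema7a, which is anchored to the membrane by a lipid, was higher by 6.39 ± 1.67 (edgeR adjusted p = 0.0496). Vegfc, a lymphatic growth factor, was lower by -4.96 ± 0.90 (adjusted p = 0.0117). Vegfa, a ligand that shares the neuropilins, was chosen here after its values were seen, and was higher by 3.64 ± 0.48 (edgeR adjusted p = 0.00253).

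Between fibroblasts and mural cells, 3 of 46 tested pathway genes were called higher and 3 lower (6.52% each, against 3.21% and 3.36% of all genes), with a median log2 fold change of 0.19 (all genes -0.028). Fyn, a kinase downstream of plexins (2.46 ± 0.51), and Dpysl3, a member of the collapsin response family (1.94 ± 0.33), were higher in fibroblasts. Plxnb1, a receptor of Sema4d (-4.64 ± 0.98), and Rnd1, a small GTPase that binds plexins (-4.22 ± 1.08), were lower. Thus Sema4d was found in apex fibroblasts (56.8) and Plxnb1 mainly in vascular smooth muscle cells (41.4 ± 17.3, n = 3) and pericytes (31.4 ± 21.1, n = 2).

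In the other 4 comparisons, 49 pathway genes were tested. Between base and middle edgeR called 0, with 3 at an unadjusted p under 0.05 (6.12%, against 9.04% of all genes), 2 by DESeq2 (4.08%, against 2.86%) and 1 by limma (2.04%, against 1.96%, median -0.27, all genes -0.10). Between middle-to-apex and apex it called Sema4d alone, lower by -7.78 ± 1.78 (2.04% of the list, against 0.695% of all genes), with 16 at an unadjusted p under 0.05 (32.7%, against 14.5%), 9 by DESeq2 (18.4%, against 8.94%) and 6 by limma (12.2%, against 4.08%, median -1.50, all genes -0.18). edgeR called Fyn (4.00 ± 0.73) and Dpysl2 (2.32 ± 0.52) higher in pericytes than in vascular smooth muscle cells (4.08% of the list, against 0.621% of all genes, both medians 0). There 11 genes had an unadjusted p under 0.05 (22.4%, against 12.7%), and DESeq2 called 8 (16.3%, against 5.57%) and limma 4 (8.16%, against 3.24%). Fibroblasts of clusters 1, 5 and 7 had means of 41.04 to 76.3 for Fyn and 121.1 to 230.9 for Dpysl2, and the fibroblast list was also higher in pericytes. Fyn (5.22 ± 0.81) was the single gene called, and higher, in interstitial against vascular smooth muscle cells (2.04% of the list, against 0.879% of all genes, median 0.0045, all genes -0.19). The interstitial side is 1 unreplicated line sum, with a Fyn level of 22.98 counts per 500000, against at most 2.15 in any vascular smooth muscle line. There 10 genes had an unadjusted p under 0.05 (20.4%, against 9.51%), and DESeq2 called 8 (16.3%, against 5.06%) and limma 6 (12.2%, against 4.05%).

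Over the 21 cluster sums, the genes whose levels were most like those of a member among 12851 compared were Cd55, Adgrd1 and Mfap5 for Sema3c (Pearson r of 0.963, 0.956 and 0.955) and Bmp5 for Sema3f (0.955). For Sema3d it was Angptl7 (0.926), for Nrp2 Ctsc (0.916), for Sema3b Akap13 (0.912), for Sema3a Cntnap4 (0.873), for Plxnd1 Calcoco1 (0.862), for Plxna2 Pgf (0.852) and for Nrp1 Lpl (0.784). Among the members, Sema3f and Nrp2 (r = 0.817) and Sema3c and Sema3b (0.822) went together, and Sema3f and Sema3b went opposite ways (-0.802). The sums share lines and clusters, so these are descriptions.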

How the data were processed

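Colon cells were sorted singly into plates and sequenced by SmartSeq2. The deposited values are raw read counts per gene, which the authors made with TopHat2, trim galore, samtools and featureCounts on GRCm38. Strand use in counting is not given in the sources used here. The authors removed shallow cells, cells with so many genes that they may be doublets, cells without Pdgfra and Pdgfrb, and cells with endothelial or immune signatures. Spike-in rows (92, 1.36% of counts) entered neither library sizes nor tests. Identifiers were named through GENCODE vM21 (46005 of 46517 had a symbol).

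The clusters held 483 (1), 131 (2), 141 (3), 142 (4), 425 (5), 45 (6), 223 (7) and 56 (8) cells, and the lines 761 (PdgfrbGFP), 567 (Acta2GFP), 227 (PdgfraGFP) and 91 (Cspg4dsRED). Levels are means over cells of counts per 500000. For tests, raw counts were summed per class and reporter line with at least 10 cells, and the sums (2202988 counts and more) were fitted with edgeR 4.0.16 quasi-likelihood (R 4.3.3, TMM, filterByExpr), with Benjamini-Hochberg adjustment over all genes and a threshold of 0.05. Fits were tested on simulated counts. Alternatives used DESeq2 1.42.0, limma 3.58.1 on log2 means with a pseudocount of 1, no filter, line as a block, plates, 3 cells per sum, other class weights, and each line left out. Sums of 1 line share the reporter and deviated together between fibroblasts and mural cells (r from 0.152 to 0.175). The rule for named pathway genes took the 2 called genes with the largest change in each direction. For likeness, 3 genes per member were taken. The members and lists were chosen with earlier results of these data known. PCR reads carry no molecular identifiers. Cells were not checked again for doublets.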

Additional observations from a re-analysis of the deposited data

Results flagged for a closer look

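Of 30 groups of 4 lines, 3 held a line that stood apart from the other lines by a wide gap. The groups share cells, and some lines had no count, so this number was not set against a chance rate. Sema3a in cluster 5 was low in Cspg4dsRED (0.538 counts per 500000, 13 cells), a level that came from 1 count. PdgfraGFP (2.30) had 0.393 in that cluster without its highest cell, below Cspg4dsRED. Sema3e in cluster 5 had counts in PdgfrbGFP alone (0.141). Sema3e in clusters 1, 5 and 7 was high in Cspg4dsRED (3.98, 26 cells).

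For 2 genes the plates of 1 line all differed one way and the plates of another line the opposite way, and this difference was not tested. The Sema3a level of fibroblasts minus that of mural cells was -50.4 in Acta2GFP and 1.61 in PdgfrbGFP (means over plates), where Acta2GFP is the line that holds nearly all interstitial smooth muscle cells. The Plxnd1 level of the apex minus that of clusters 1, 5 and 7 was 31.01 in PdgfraGFP and -11.7 in PdgfrbGFP.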

How the results depend on the processing

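Of 700 alternative values for the members, 612 kept their direction and side of the threshold, 39 gained a call, 21 lost one and 28 changed sign. None of those 28 was called in either fit. The cause of these changes was not tested.

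Members called numbered with DESeq2 5 (fibroblasts against mural cells), 8 (apex), 4 (base against middle), 3 (middle-to-apex), 3 (pericytes) and 1 (interstitial), with limma 2 in each of the last 3, with plates 3, 8 and 1 (fibroblasts, apex, pericytes) and without the filter 1 (pericytes). With plates 16.1% (fibroblasts), 12.1% (apex) and 2.70% (pericytes) of the genes tested were called, and without the filter 0.696% (pericytes). Against cluster 1 alone the apex count was 1, and against cluster 7 alone 4. With 1 line left out the counts ran from 0 to 1, 0 to 6, 0 to 2, 0 to 0, 0 to 1 and 0 to 0. With line as a replicate block they were 1, 5, 2, 0, 0 and 0, and the block changed no member's call. It moved the genes called by over 1.5 times in the 2 comparisons given in the report, and in the other 4 to 5.73% (apex), 1.13% (middle-to-apex), 0.994% (pericytes) and 1.07% (interstitial). Genes called ran, with 1 line left out, from 1.81 to 5.81% of those tested (6.57% with all lines), 1.18 to 7.60% (7.26%), 0.0709 to 0.813% (0.488%), 0.0236 to 2.21% (0.957%), 0.226 to 0.974% (0.819%) and 0.485 to 1.64% (1.007%), and with DESeq2 were 15.5, 15.3, 2.86, 8.94, 5.57 and 5.06%.

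Sign changes in log2 fold change, none called, were as follows. Between fibroblasts and mural cells they were Sema3f at -0.42 (clusters weighted equally) and Plxna2 at 0.0080 (limma) and 0.053 (plates), and with 1 line left out Sema3a ran from -2.48 to 2.76 and Nrp1 from -0.38 to 0.46. At the apex, Plxnd1 was -0.068 (limma) and -0.32 (cluster 1 alone), and ran from -0.54 to 0.69. At the base, Sema3a ran from -2.37 to 0.95. Between middle-to-apex and apex, Sema3c was -1.36 (plates), Sema3d 0.16 and Plxnd1 0.035 (limma), and Sema3b ran from -2.24 to 5.41, Sema3c from -1.52 to 4.499 and Sema3d from -3.86 to 5.68. In pericytes, the block gave Sema3c 0.29 and Sema3e -0.22, limma gave Plxnd1 0.011, and Sema3c ran from -5.88 to 2.68, Sema3d from -7.39 to 5.09, Sema3f from -1.20 to 1.19 and Plxnd1 from -0.88 to 0.35. In interstitial cells, Sema3c was 2.32 (limma), 0.54 (plates) and 0.049 (without plate 075s), and Sema3d 0.20 (limma), 0.16 (3 cells per sum) and 0.55 (plates).

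Of the 80 member levels by cluster, 54 moved by less than 1 SD between lines when all cells were pooled, 68 after thinning, 62 with 3 cells per line and 65 with plates.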

Other observations

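Sema3c levels in single mural cells went with the Sema3c counts of the wells that share its plate row or column (mean Spearman rho 0.34 over 6 plates). For apex cells, the mean rho was 0.40 for Sema3c with 5 plates, 0.45 for Sema3b with 4 and 0.54 for Sema3d with 2, and for base cells 0.38 for Sema3f and 0.28 for Plxnd1 (5 plates). It was 0.51 for Nrp1 in interstitial smooth muscle cells (2 plates) and 0.10 for Sema3a in clusters 1, 5 and 7 (9 plates). These are descriptions over cells of shared plates, and they concern low levels of genes that are high in another cluster.

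Plxna4, a class A plexin, had 33.2 counts per 500000 in the interstitial smooth muscle cells of Acta2GFP, the 1 line with at least 10 of them, where Sema3a was also highest, and at most 6.64 in the mean of any other cluster. It was chosen after its values were seen.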
